A study of Mus musculus with 12 samples.

Results

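The response of cumulus cells to equine chorionic gonadotropin (eCG, named PMSG in the sample labels) was measured on 6 of the 12 Affymetrix arrays of the series. The arrays were chosen by their titles alone: 3 of cumulus cells from PMSG-stimulated mice and 3 of cumulus cells from unprimed mice. Stimulated mice had received 5 IU of eCG into the peritoneum 44 hours before collection, and unprimed mice had received no eCG. All mice were B6SJLF1 animals 22 days old, and every replicate came from a pool of 5 mice, so 1 value is an average over animals. Each cumulus sample was stripped from 200 complexes of an oocyte with tightly packed cumulus, and the oocytes were discarded. The other 6 arrays held mural granulosa cells of stimulated and of unprimed mice, 3 each. They also entered the filter on low values and the estimate of the spread behind the cumulus tests. Their own response is set beside that of cumulus cells below.

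Cumulus cells are the granulosa cells that surround the oocyte and are coupled to it by gap junctions, while mural granulosa cells line the follicle wall. eCG acts in rodents mainly like follicle-stimulating hormone, whose receptor raises cyclic AMP and activates protein kinase A in granulosa cells. This drives proliferation, growth of antral follicles and oestrogen synthesis, and it prepares cumulus cells for the later ovulatory signal.

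The deposited values were log2 intensities after robust multi-array averaging (RMA), 1 per transcript probe set, for 41115 Ensembl mouse transcripts. Transcripts whose values were identical on all 12 arrays cannot be told apart and were counted once, as 1 set. Of 27365 sets, 16809 passed the filter on low values and were tested. The median value per array was 7.30 to 7.38. Precision is limited by having 3 arrays in a group. Replicates correlated at 0.985 to 0.986 among stimulated and at 0.990 to 0.993 among unprimed cumulus arrays, against 0.961 to 0.976 between stimulated and unprimed arrays. No pairing of these transcript identifiers with gene names was used here, so markers of cumulus cells, oocytes or other ovarian cells were not checked, and the leading transcripts are given by identifier. Bacterial poly-A control rows (dap, lys, phe and thr) were also higher in the stimulated cumulus arrays, and unprimed replicate 2 lay nearest to the stimulated arrays. Both are described with their values below.

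After eCG, 1802 sets were higher and 1529 lower in cumulus cells, which is 10.7% and 9.1% of the sets tested (limma, Benjamini-Hochberg adjusted p under 0.05). Most of these changes were small. The median log2 change was 0.57 among the higher sets and -0.52 among the lower ones, against -0.01 over all sets tested, and the median standard error was 0.12. A rise of at least 2-fold was seen in 217 sets and a fall of that size in 135, and for 4-fold these numbers were 16 and 10. In such pooled samples, a lower share of cells that carry a transcript and less of it per cell cannot be told apart. With the mean of the poly-A controls as a covariate only 9 sets were higher and 16 lower, and with 1 array left out at a time the counts were 962 to 1662 and 687 to 1675.

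The leading transcripts show the scale of the response on single arrays. ENSMUST00000099575 had log2 values of 11.27, 11.13 and 11.72 in stimulated cumulus cells, against 8.04, 8.74 and 8.28 in unprimed cumulus cells. The lowest stimulated array thus lay well above the highest unprimed one, and the difference of 3.02 ± 0.29 (SE, limma adjusted p = 5.6e-05) is an 8.10-fold rise. ENSMUST00000038197, whose row was identical to that of 1 further transcript, had 10.12, 10.18 and 10.16 in stimulated and 6.53, 7.79 and 7.20 in unprimed cumulus cells. Its stimulated arrays were nearly alike (SD 0.03, n = 3) and the unprimed ones were spread (SD 0.63, n = 3), with replicate 1 below the filter level of the cumulus arrays, the 40th percentile at 6.66 to 6.72. Its difference was 2.98 ± 0.32 (SE, limma adjusted p = 0.00012).

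Both leading falls ended below that filter level. ENSMUST00000016602, whose values were shared with 5 other transcripts, had 5.37, 6.20 and 5.40 in stimulated cumulus cells, against 8.76, 8.50 and 8.59 in unprimed cumulus cells. The groups were far apart, with a difference of -2.96 ± 0.22 (SE, limma adjusted p = 9.6e-06). ENSMUST00000094022 had 6.40, 6.40 and 6.41 in stimulated cumulus cells, against 9.73, 8.54 and 9.69 in unprimed cumulus cells, a difference of -2.92 ± 0.24 (SE, limma adjusted p = 2.5e-05). The stimulated arrays of this transcript were nearly alike (SD 0.01, n = 3) and the unprimed ones were spread (SD 0.68, n = 3). The SE of each difference given here pools the spread of all 4 groups, mural ones included. With the cumulus arrays alone the difference for this transcript had limma adjusted p = 0.00047. RMA compresses values at such low levels, so the size of both falls is not exact. With the poly-A covariate the log2 changes of the 4 transcripts, in the order given, were 2.15, 1.95, -2.95 and -3.02, with limma adjusted p = 0.26, 0.36, 0.054 and 0.058.

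**Figure D1:**
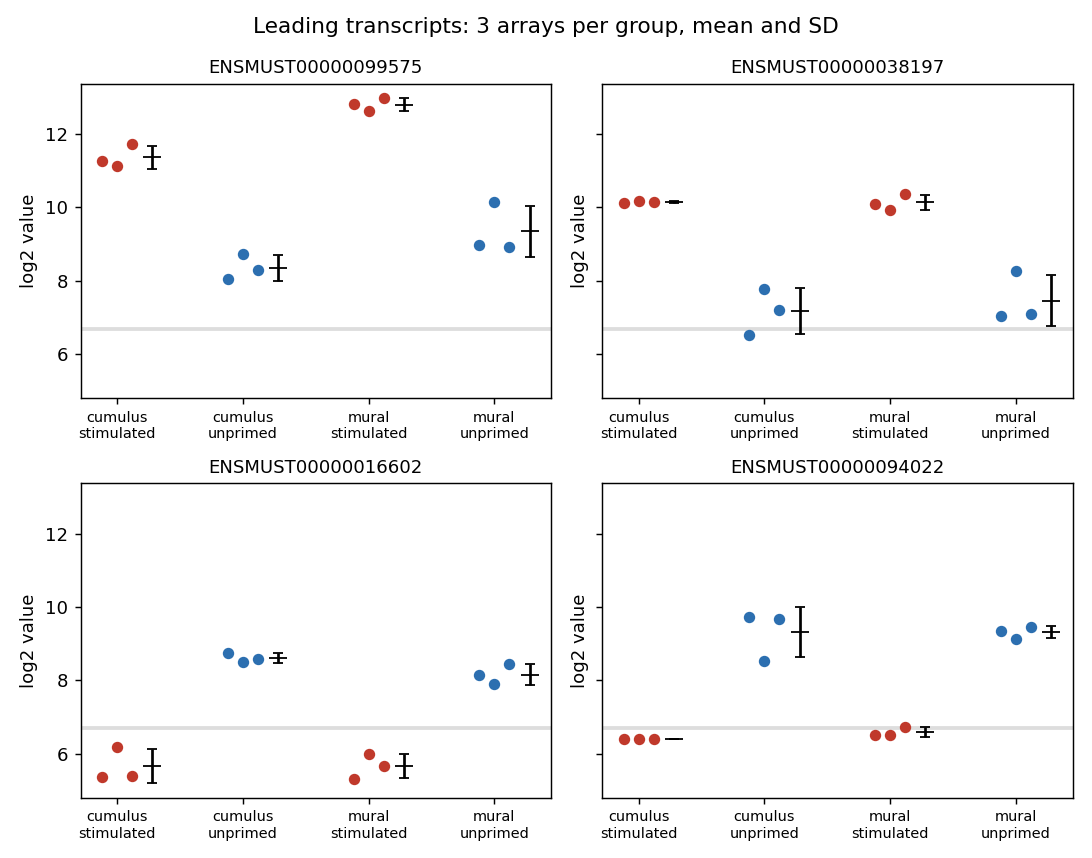
Log2 values of the leading transcripts by array, 3 arrays per group (points), with the group mean and SD beside them; the grey band is the filter level of the cumulus arrays (6.66 to 6.72). In each panel the stimulated cumulus arrays lie wholly above or wholly below the unprimed ones, and the mural arrays are arranged alike.

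Changes were called at all levels of expression and more often in abundant transcripts. The tested sets were split by mean cumulus level into 4 bins of equal number. In the lowest bin (4.29 to 7.47), 6.50% were higher and 6.28% lower after eCG. In the highest bin (9.91 to 14.63), 15.3% were higher and 11.0% lower. The standard error was alike in both (0.12), while the median size of the change was 0.15 in the lowest bin and 0.22 in the highest. Sets changed at least 2-fold were most frequent in the third bin (8.56 to 9.91), with 72 higher and 47 lower of 4202, and less frequent in the highest, with 41 and 19.

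Few transcripts crossed the filter level, which is a percentile of each array and not a limit of detection. In all, 107 sets lay above the filter level on all 3 stimulated and on 0 unprimed cumulus arrays, and 77 of these were called higher. In the other direction, 95 sets lay above it on 0 stimulated and on all 3 unprimed arrays, and 75 were called lower. Over all sets tested, 10.7% were called higher and 9.1% lower. Sets that cross the level are separated by their choice, so their high share of calls follows from it in large part. Most called sets did not cross the level. On all 6 cumulus arrays 1619 of the 1802 higher and 1335 of the 1529 lower sets were above it, as were 14798 of all 16809 sets. For 7 higher and 10 lower sets no cumulus array was above the filter level.

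**Figure D2:**
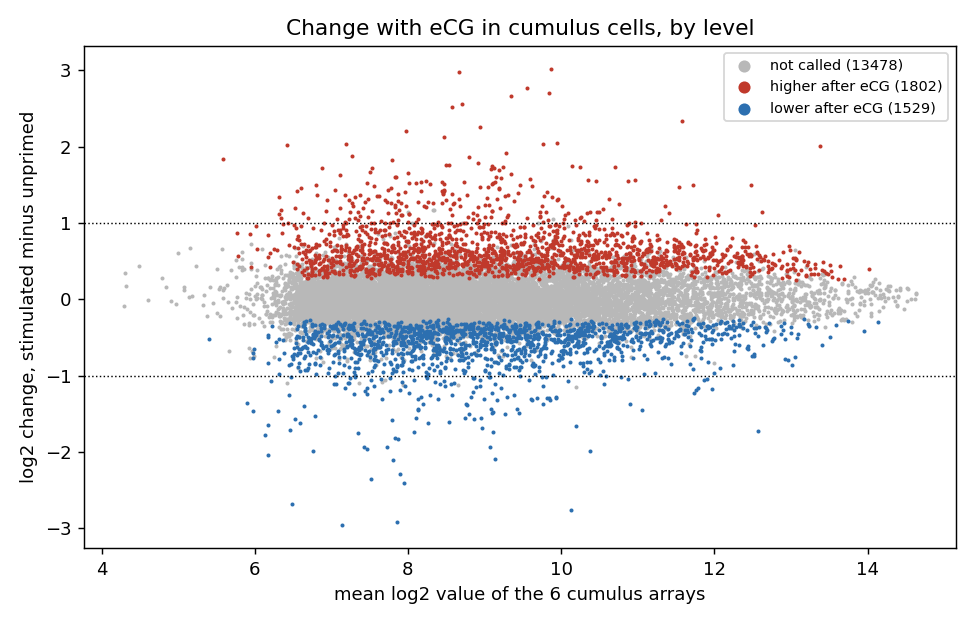
Log2 change with eCG in cumulus cells (stimulated minus unprimed, vertical axis) against the mean log2 value of the 6 cumulus arrays (horizontal axis), 1 point per set of values. The 1802 higher and 1529 lower sets are coloured, the 13478 sets not called are grey, and the dotted lines mark a 2-fold change.

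The groups were separate for nearly every called set. All 3 stimulated values lay above all 3 unprimed values in 1788 of the 1802 higher sets and below them in 1501 of the 1529 lower sets. Over all sets tested, 21.3% had stimulated arrays wholly above and 19.7% wholly below the unprimed ones, so separation alone was common here: 3591 separated sets were not called. Of the called sets, 1308 higher and 1035 lower ones stood for a single transcript, and the rest were shared by 2 or more transcripts (at most 16 among the higher and 24 among the lower sets).

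The 16 sets that rose at least 4-fold had log2 means of 7.43 to 14.38 in stimulated and 5.41 to 12.37 in unprimed cumulus cells. Their median SD was 0.14 in stimulated and 0.50 in unprimed cumulus cells (n = 3 each), whereas over all sets tested it was 0.15 in stimulated and 0.10 in unprimed cells. Unprimed replicate 2 was the highest unprimed array in 14 of the 16. The most abundant of them had 14.34, 14.30 and 14.48 in stimulated cumulus cells, against 12.15, 13.10 and 11.86 in unprimed ones, a rise of 2.00 ± 0.23 (SE, limma adjusted p = 2.0e-04). In mural cells this transcript was already near the top of the scale, with 14.70, 14.70 and 14.71 in stimulated and 14.35, 14.53 and 14.12 in unprimed cells, where the highest value of any transcript on any array was 14.71. Arrays compress signal so near the top of the scale, so the size of this rise is not exact and may be a lower bound.

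The 10 sets that fell at least 4-fold had means of 5.15 to 8.75 in stimulated and 7.20 to 11.51 in unprimed cumulus cells, and 5 of the 10 ended below the filter level. The one with the highest starting level had 8.60, 9.05 and 8.60 in stimulated cumulus cells, against 11.81, 11.11 and 11.61 in unprimed ones. It stayed above the filter level in both groups, with a fall of 2.76 on the log2 scale (SE 0.19, limma adjusted p = 9.6e-06).

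Unprimed cumulus replicate 2 lay closer to the stimulated arrays than its fellows. Among the 217 sets that rose at least 2-fold it was the highest unprimed array in 157 (72.4%), against 37.4% over all sets tested. Among the 135 that fell at least 2-fold it was the lowest in 79 (58.5%), against 31.4% over all sets. Unprimed mural replicate 2 did the same in these sets, being the highest unprimed mural array in 167 of the 217 and the lowest in 99 of the 135, against 42.3% and 30.5% over all sets. The labels do not say whether arrays of one number share mice. Without unprimed cumulus replicate 2, 283 sets were at least 2-fold higher and 159 at least 2-fold lower, and 211 of the 217 and 132 of the 135 remained among them. In every one of the 6 fits that left out 1 cumulus array, 194 of the 217 and 123 of the 135 were called in the same direction, though not always at 2-fold. This held for 807 of all 1802 higher and 552 of all 1529 lower sets.

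Mural arrays were set beside these calls, since they share no array with the cumulus comparison, though they share its estimate of the spread and perhaps its mice. Of the 1802 sets higher in cumulus cells 25.3% were also called higher in mural cells and 1.89% lower, where 6.46% of all sets were called higher and 8.35% lower in mural cells. Of the 1529 lower sets 34.4% were also called lower in mural cells and 1.05% higher. The shared sets made up 42.0% of the mural higher and 37.5% of the mural lower calls. The median mural log2 change was 0.19 in the cumulus higher sets and -0.27 in the cumulus lower sets, against -0.02 over all sets.

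The larger the cumulus change, the more often mural cells changed too. Of the sets that rose in cumulus cells by under 0.5 on the log2 scale 15.5% were called higher in mural cells, of those that rose by 0.5 to 1 23.1%, by 1 to 2 61.7%, and by 2 or more 14 of 16. For falls these shares were 22.4%, 37.0%, 82.4% and 9 of 10. All 135 sets that fell at least 2-fold in cumulus cells had a negative mural change, with a median of -0.997 in mural and -1.29 in cumulus cells. Of the 217 that rose at least 2-fold, 207 had a positive mural change, with a median of 0.79 in mural and 1.29 in cumulus cells. Over all sets tested, 53.0% had a negative and 47.0% a positive mural change. The sets were picked for large cumulus changes, so a smaller mural median is no sign of a weaker mural response.

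**Figure D3:**
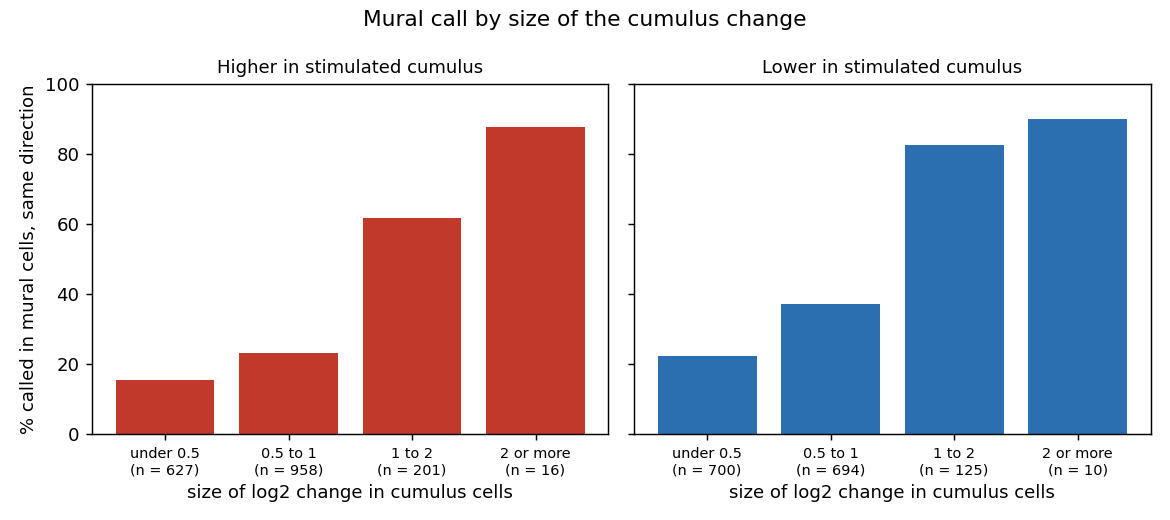
Share of the sets called in cumulus cells that were also called in the same direction in mural cells (vertical axis, %), by the size of the log2 change in cumulus cells (horizontal axis, with the number of sets). The share runs from 15.5% to 87.5% for higher and from 22.4% to 90.0% for lower sets.

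The leading transcripts were among those that changed in mural cells as well. ENSMUST00000099575 had 12.82, 12.62 and 12.98 in stimulated mural cells, against 8.98, 10.15 and 8.92 in unprimed mural cells, a change of 3.45 ± 0.29 (SE, limma adjusted p = 8.1e-06). Mural changes were 2.68 for ENSMUST00000038197, -2.50 for ENSMUST00000016602 and -2.72 for ENSMUST00000094022. The cumulus change minus the mural change was -0.44, 0.30, -0.46 and -0.19 for the 4 transcripts in the order given (SE 0.32 to 0.45). None of these differences was called (limma adjusted p = 0.45 to 0.81).

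A smaller part of the cumulus response differed from that of mural cells by the test of the difference itself. This interaction was called in 189 of the 1802 higher sets (10.5%) and 86 of the 1529 lower sets (5.62%), against 3.26% of all sets tested. Since the cumulus arrays enter both tests, the higher share among called sets follows in part from their choice. Of the 189, 128 were not called in mural cells, 34 were called lower there and 27 were called higher in both. Of the 86, 50 were not called in mural cells, 16 were called higher there and 20 were called lower in both. A further 1184 higher and 937 lower sets had neither a mural call nor a called interaction. For these, neither a shared nor a different response was shown. Among interaction sets called in both cell types, the mural change was mostly the larger in size. This was so in 20 of the 27, 17 of the 20, 24 of the 34 and 12 of the 16. The cumulus change was the larger in all of the 128 and all of the 50, which follows in large part from their choice. Fewer sets were called in mural cells (1086 higher and 1403 lower), so a mural call needed a larger change for its SE. The mostly larger mural size in sets called in both cell types thus also follows in part from choice. The interaction was called in 1080 cumulus-called sets with array weights and in 95 to 488 with 1 cumulus array left out, against 275 with all arrays weighted equally. It was called in 64 with the replicate number as a block, in 11 with the poly-A covariate (6 of them among the 275) and in 26 with the hybridization covariate, the mean of the controls bioB, bioC, bioD and cre (11 among the 275). Of the 24 poly-A controls themselves, 20 had a called interaction.

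The largest positive interaction among the sets that rose at least 4-fold belonged to a transcript with 9.77, 9.73 and 10.03 in stimulated cumulus cells, against 7.00, 8.14 and 6.82 in unprimed ones. In mural cells it had 6.52, 6.69 and 7.17 after stimulation, against 7.11, 7.51 and 6.40 without, values around the filter level. Its change of 2.52 in cumulus cells differed from that of -0.22 in mural cells by 2.74 ± 0.46 (SE, limma adjusted p = 0.0067), but the call was lost with the poly-A covariate (2.24, limma adjusted p = 0.25) and with the hybridization covariate (2.13, limma adjusted p = 0.28). Another transcript rose to 10.87, 10.46 and 10.70 in stimulated cumulus cells, against 7.85, 8.42 and 7.79 in unprimed ones. It changed in both cell types, by 2.66 in cumulus cells and by 0.62 in mural ones. The difference of 2.04 ± 0.22 was called (SE, limma adjusted p = 0.00041), and it was called with the poly-A covariate (2.29, limma adjusted p = 0.011) and the hybridization covariate (2.27, limma adjusted p = 0.016).

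Among falls the largest such difference belonged to the transcript with the highest starting level described above. In mural cells it had 9.79, 10.20 and 10.28 after stimulation, against 10.66, 10.46 and 10.84 without, a change of -0.56 (limma adjusted p = 0.070). The difference between its cumulus and mural changes was -2.20 ± 0.27 (SE, limma adjusted p = 0.00091). It too was called with the poly-A covariate (-2.34, limma adjusted p = 0.028) and the hybridization covariate (-2.60, limma adjusted p = 0.016). In all, 29 sets rose at least 2-fold in cumulus cells with a called interaction and no mural call (mural changes -0.29 to 0.49), and 4 sets fell so (mural changes -0.56 to -0.03). The 29 include the most abundant of the sets that rose at least 4-fold, with a difference of 1.63 ± 0.33 (SE, limma adjusted p = 0.019). Its mural values lay near the top of the scale, so its mural change of 0.37 may be a lower bound and this difference is not exact. The sets called in opposite directions changed less in cumulus cells, by 0.33 to 1.01 in the 34 that were higher there and by -0.94 to -0.25 in the 16 that were lower.

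**Figure D4:**
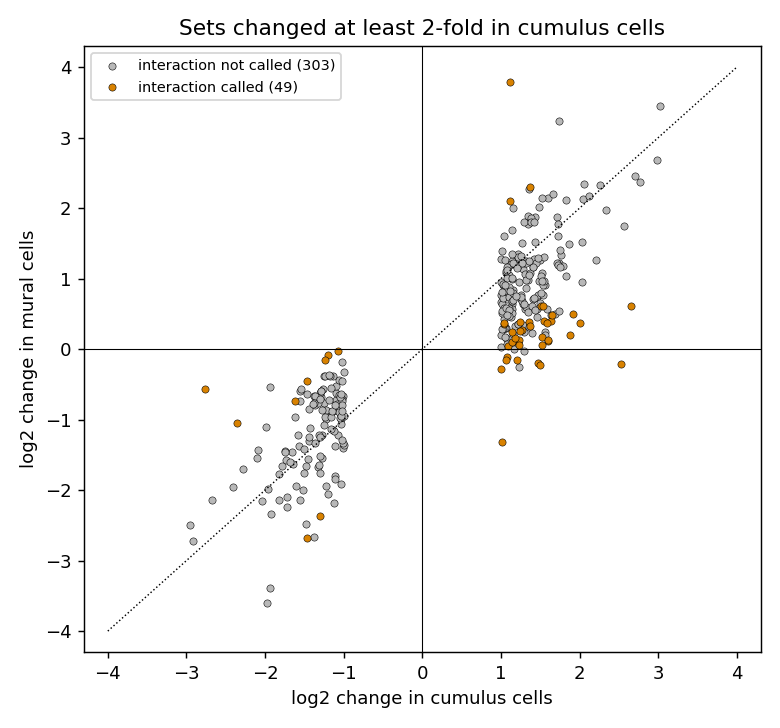
Log2 change with eCG in mural cells (vertical axis) against that in cumulus cells (horizontal axis) for the 217 higher and 135 lower sets that changed at least 2-fold in cumulus cells; the dotted line marks equal change. Orange points, 49 in all, are sets with a called interaction, and all 135 lower sets lie below 0 in mural cells.

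Named control probe sets gave values for a few mouse genes, tested in the same model and adjusted over the 64 control rows. Among these rows, 24 poly-A and 14 hybridization controls were called in cumulus cells and 0 of either kind in mural cells. Those calls lower the adjusted p of the mouse rows in cumulus cells. The adjusted p given here therefore cannot be compared with those of transcript sets or between cell types. Gapdh, a glycolytic enzyme that makes NADH from glyceraldehyde 3-phosphate, was higher in stimulated cumulus cells by its 5′ probe set, with 12.86, 12.72 and 13.11 in stimulated and 12.26, 12.50 and 12.42 in unprimed cells. The groups did not overlap, and the difference was 0.51 ± 0.17 (SE, limma adjusted p = 0.022). It was not called without stimulated replicate 3 (0.40, limma adjusted p = 0.089) or without unprimed replicate 1 (0.44, limma adjusted p = 0.080). The middle Gapdh probe set differed by 0.22 (limma adjusted p = 0.048, and 0.086 after renewed quantile normalization) and the 3′ one, near the top of the scale at 14.41 in stimulated and 14.24 in unprimed cells, by 0.17 (limma adjusted p = 0.067). The Gapdh 3′ minus 5′ value was 1.56, 1.62 and 1.37 on stimulated and 1.96, 1.76 and 1.83 on unprimed cumulus arrays. For beta-actin it was 1.17, 1.13 and 0.87 against 1.01, 0.75 and 0.92. What lay behind these values was not tested. In mural cells the Gapdh differences were 0.61, 0.35 and 0.25 for the 5′, middle and 3′ probe sets (limma adjusted p = 0.12 each). Unadjusted limma p was 0.0039, 0.0025 and 0.0069 there, against 0.013, 0.031 and 0.046 in cumulus cells. The interactions were -0.11, -0.12 and -0.08, and none was called. A call in cumulus cells alone thus does not show that the Gapdh response was particular to them.

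Pyruvate carboxylase, the mitochondrial enzyme that turns pyruvate into oxaloacetate, was lower by its 3′ probe set, with 7.46, 7.77 and 7.30 in stimulated and 7.96, 7.78 and 7.92 in unprimed cumulus cells. The highest stimulated value was just under the lowest unprimed one. The difference was -0.38 ± 0.12 (SE, limma adjusted p = 0.013), and -0.28 without stimulated replicate 3 (limma adjusted p = 0.060). In mural cells it was 0.38 ± 0.12 (limma adjusted p = 0.12). Unadjusted limma p was alike, 0.0068 in cumulus and 0.0076 in mural cells. The responses of the cell types differed by -0.76 ± 0.17 (SE, limma adjusted p = 0.013). This interaction was not called with the poly-A covariate (-1.02, limma adjusted p = 0.068) or the hybridization covariate (-1.02, limma adjusted p = 0.064). The other 3 probe sets of this gene differed by -0.21 to 0.02 in cumulus cells, with interactions of -0.28 to -0.01, and none of these was called. The 3′ probe set of 18S ribosomal RNA was lower by 0.45 on the log2 scale in the stimulated group (limma adjusted p = 0.0091), with differences of -0.02 and -0.10 at the 5′ and middle sets. In mural cells the 3′ set of 18S differed by -0.39 (limma adjusted p = 0.14), with an interaction of -0.06 (limma adjusted p = 0.86). The 3 probe sets each of beta-actin, a cytoskeletal protein, and of the transferrin receptor, which imports iron, differed by -0.12 to 0.08 and were not called, and those of the receptor lay below the filter level.

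The poly-A controls are bacterial transcripts with no mouse target that are commonly added to the RNA before amplification. Their mean over 24 probe sets was 8.63, 8.79 and 8.43 on stimulated and 7.80, 7.59 and 7.69 on unprimed cumulus arrays. All 24 were higher in the stimulated group, where 19.8% of transcript sets were called in either direction, by 0.57 to 1.36 on the log2 scale (median 0.92). By transcript the medians were 0.90 for dap, 1.21 for lys, 0.95 for phe and 0.68 for thr. Controls usually spiked in at the hybridization step (bioB, bioC, bioD, cre) averaged 11.40, 11.62 and 11.32 on stimulated arrays, against 11.09, 11.07 and 11.09 on unprimed ones, and 14 of 18 were higher. The trpn controls, which had 4.57, 4.56 and 4.51 against 4.62, 4.52 and 4.51, were not called.

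These differences were seen in the cumulus comparison and not in the mural one. Stimulated mural arrays averaged 7.57, 7.57 and 7.75 for the poly-A controls, against 7.32, 7.84 and 7.23 on unprimed mural arrays. The median mural difference was 0.15 and limma called 0 of 24 (1 at an unadjusted p under 0.05), and for 20 of the 24 the interaction was called. The poly-A means of the cumulus groups did not overlap. The covariate fit had standard errors 2.05 times as large in the median, and it left 2699 of the 3331 called sets with the same sign and 632 with the opposite one. Of the sets changed at least 2-fold, 22 turned sign. With the hybridization controls as the covariate, chosen after the data were seen, 113 sets were higher and 134 lower, and 63 of the 3331 turned sign. The part of these controls in the cumulus calls and the part of eCG cannot be told apart within the 6 cumulus arrays.

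**Figure D5:**
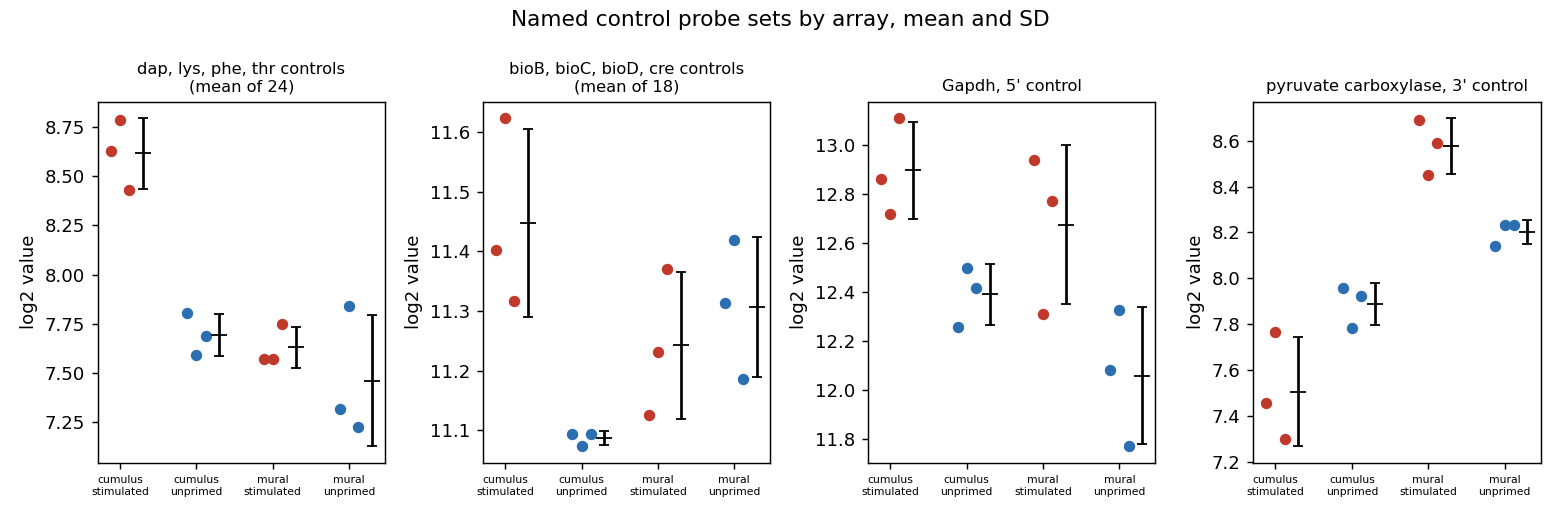
Log2 values of named controls by array, 3 arrays per group (points) with the group mean and SD: the mean of 24 poly-A controls, the mean of 18 hybridization controls, the 5′ Gapdh and the 3′ pyruvate carboxylase probe sets; each panel has its own axis, which does not start at 0. The poly-A mean is 8.43 to 8.79 on stimulated cumulus arrays and 7.23 to 7.84 on all the others.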

How the data were processed

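RNA of cumulus and mural granulosa cells was hybridized to 12 arrays after amplification of 20 ng of total RNA in 2 rounds, per the labels' protocols, which can alter relative levels and favours 3′ ends. The values deposited by the authors are log2 intensities of probe sets, from RMA in the affy package per the submitters' processing notes. Its quantile step equalizes the arrays and would hide a shift of most transcripts. Software versions, array model, probe set definition, build and annotation: not given in the sources used here. No column of values belonged to another series.

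Probe sets had to exceed the 40th percentile in 3 or more of the 12 arrays to be tested, leaving 25917 of 41115 (16809 of 27365 distinct sets). The 64 control rows were fitted along in a separate run and adjusted over 64. One mean per group was fitted to all 12 arrays with limma 3.58.1 (lmFit, eBayes; R 4.3.3), and two-sided p-values were Benjamini-Hochberg adjusted over 25917 rows at 0.05. Counts are of distinct sets. The interaction is the cumulus change minus the mural change. Named transcripts were the extremes of the log2 change among called sets whose groups did not overlap, limited to 2 in each direction because 0 identifiers matched a gene name in the reference table; planned counts of genes per list and their gene-unit alternatives were for that reason not run. Other transcripts are described without identifiers and were chosen after their values were seen. The comparison, lists and members were chosen with earlier results of these data known. The labels call the replicates biological, from separate pools. The procedure was tested on simulated data with independent noise and no technical difference between groups. That test does not bear on the control differences described above. No 2 arrays shared more than 0.0631% of their values. Alternatives covered the filter, the scaling, array weights, covariates, a replicate block and leaving out each cumulus array. Plots were made in Python 3.11.15 using matplotlib 3.10.9.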

Additional observations from a re-analysis of the deposited data

Results flagged for a closer look

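The 3′ control probe set of pyruvate carboxylase responded differently to eCG in the cell types: its log2 change in cumulus cells minus that in mural cells was -0.76 ± 0.17 (SE, limma adjusted p = 0.013 over 64 control rows). It was lower in all 3 stimulated than in all 3 unprimed cumulus arrays and higher in all 3 stimulated than in all 3 unprimed mural arrays. The interaction was -1.02 with the poly-A covariate and also with the hybridization covariate, not called (limma adjusted p = 0.068 and 0.064). The other 3 probe sets of the gene had interactions of -0.28 to -0.01, not called.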

How the results depend on the processing

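The number of sets higher and lower stayed within 1.5 times of 1802 and 1529 under another filter, median centring, renewed quantile normalization, cyclic loess, cumulus arrays alone, array weights, merging identical rows first, a variance trend and the 3′ minus 5′ covariate. With the poly-A covariate they were 9 and 16, and with the hybridization covariate 113 and 134. With 1 cumulus array left out they ranged from 962 to 1662 and from 687 to 1675, the fewest without unprimed replicate 3. With the replicate number as a block 979 were higher and 833 lower, and cumulus-called sets with an interaction numbered 64. Deviations of same-numbered stimulated and unprimed arrays from their group means correlated at 0.23, 0.07 and 0.13, each the highest for its array. These values are small, and deviations from a mean of 3 arrays depend on each other. They therefore cannot show whether arrays were paired. The 4 named transcripts kept their direction in all alternatives and their call in all but the poly-A covariate. Pyruvate carboxylase (3′) had changes of -0.71 and -0.60 and 18S (3′) of -0.45 and -0.35 with the poly-A and hybridization covariates, not called. Gapdh (5′) was not called with the block (limma adjusted p = 0.052) or either of these covariates, and Gapdh (middle) was also not called with renewed quantile normalization, cyclic loess, cumulus arrays alone, the 3′ minus 5′ covariate, or without any 1 cumulus array but stimulated replicate 2. The cause of these changes was not tested. Signal near the filter level limits the size of changes there.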
